A study of Arabidopsis thaliana with 8 samples.

Results

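The JAZ genes (JASMONATE ZIM-DOMAIN) encode the repressors of jasmonate signalling, and 10 of their loci were followed across 4 Arabidopsis genotypes: JAZ1 (AT1G19180), JAZ2 (AT1G74950), JAZ3 (AT3G17860), JAZ5 (AT1G17380), JAZ6 (AT1G72450), JAZ7 (AT2G34600), JAZ8 (AT1G30135), JAZ9 (AT1G70700), JAZ10 (AT5G13220) and JAZ12 (AT5G20900). Their probes were found by the transcript accession printed on the array, which gave 13 of 43603 distinct probes, for 10 of 25371 annotated genes. JAZ6, JAZ10 and JAZ12 had 2 probes each and the other 7 genes had 1. Where a gene had 2 probes, the one with the higher mean over the 8 arrays is called the leading probe. All 13 probes were well above background on all 8 arrays, so none entered the tests through 1 genotype alone.

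JAZ proteins bind MYC2 and related transcription factors and hold their targets off by bringing in the corepressor TOPLESS, either through the adaptor NINJA or directly. When leaves are wounded or attacked, jasmonoyl-isoleucine (JA-Ile) joins JAZ proteins to the F-box receptor COI1, the JAZ proteins are degraded and MYC factors are released. Most JAZ genes are themselves MYC targets, so their transcripts climb after a jasmonate signal and are read as a marker of it. The histone deacetylase HDA6, the gene mutated here, is known to be recruited by JAZ1 to dampen the ethylene factors EIN3 and EIL1.

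The study compared 4 genotypes with 2 one-colour Agilent arrays each: ros1-1 hda6-10, ros1-1 hda6-9, ros1-1 and C24 wild type (8 arrays in all). All of them carry the linked RD29A::LUC and 35S::NPTII reporter transgenes, and ros1-1 lacks the DNA demethylase ROS1. The hda6-10 allele lost a few bases where exon 1 ends, which truncates the protein, and hda6-9 is a T-DNA insertion just before the stop codon that changes the end of the protein. Each allele is 1 line recovered as a suppressor of ros1-1, and the comparison asks how the alleles differ in their effect on endogenous genes. Seedlings were 12 days old, grown at 21 °C in a day of 16 h light and 8 h dark on medium holding 3% sucrose, and spent 1 day at 4 °C before harvest, in every genotype. Each RNA came from pooled whole seedlings, so fewer cells of a type and less RNA per cell cannot be told apart. The double mutants are called hda6-10 and hda6-9 from here on.

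Between 77.2% and 80.6% of the non-control spots of an array were well above background and none was saturated. Levels are log2 of the processed signal relative to the 75th percentile of the same array, so 0 stands for that percentile. The leading HDA6 probe read -1.76 and -1.78 in hda6-10, 0.90 and 0.84 in hda6-9, -0.17 and -0.20 in ros1-1 and -0.31 and -0.24 in C24, which set the 2 alleles apart from each other and from their parents. Of 3 leaf markers, RBCS1A and LHCB1.3 were at 7.15 or more on every array and LHCB2.1 was between -0.23 and 0.96, while the floral genes AG and AP3 were at -5.37 or less. All 3 root markers were well above background on at least 7 arrays and none was called. Of these, COBL9 read -4.28 and -4.31 in hda6-10, -6.40 and -5.05 in hda6-9, -3.67 and -3.53 in ros1-1 and -3.59 and -5.24 in C24 (-2.13 in hda6-9 against ros1-1, limma adjusted p = 0.084), EXPA7 was at -2.53 in hda6-9 against ros1-1 (0.17) and IRT1 at -0.39 (0.82). In hda6-10 against ros1-1 they were at -0.69, -0.74 and -1.30 (limma adjusted p = 0.56, 0.71 and 0.48). Of the 3 cold-regulated genes, COR15A was higher in hda6-10 than in ros1-1 (1.44, limma adjusted p = 0.033, a call lost under 7 of 19 alternatives), and COR47 and KIN1 were not called (0.75 and 0.62). The seed storage gene CRA1 ranged from -7.26 to -0.28 over the arrays, being lowest on hda6-9 replicate 2 and C24 replicate 2, and the seed gene SESA1 was above background on 1 array. The part of these tissues and of the cold response in the JAZ values was not tested. Nothing in the labels says whether the 2 arrays of a genotype came from separately grown plants, and the study's methods state more biological replicates for each sample than there are arrays here. P-values thus measure only the spread between these samples, which may be technical.

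JAZ6 had the lowest adjusted p of the JAZ genes. Its leading probe read 1.13 and 1.35 in hda6-10, 2.72 and 2.55 in hda6-9, 2.72 and 2.72 in ros1-1 and 2.1 and 2.23 in C24. Both hda6-10 arrays lay below the other 6 arrays, and hda6-9 overlapped ros1-1. JAZ6 fell 2.79-fold in hda6-10 against ros1-1 (log2 fold change -1.48 ± 0.11 (SE), limma adjusted p = 0.0011). In hda6-9 against ros1-1 the log2 fold change was -0.08 ± 0.11 (adjusted p = 0.67, limma). The other JAZ6 probe read 0.72 and 0.99 in hda6-10, 2.41 and 2.14 in hda6-9, 2.32 and 2.35 in ros1-1 and 1.68 and 1.93 in C24. It gave the same picture, with a log2 fold change of -1.48 ± 0.15 in hda6-10 against ros1-1 (limma adjusted p = 0.0031). Over 19 alternative ways of processing and fitting, the leading probe's difference between hda6-10 and ros1-1 stayed between -1.59 and -1.37 and its adjusted p did not pass 0.03.

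**Figure D1:**
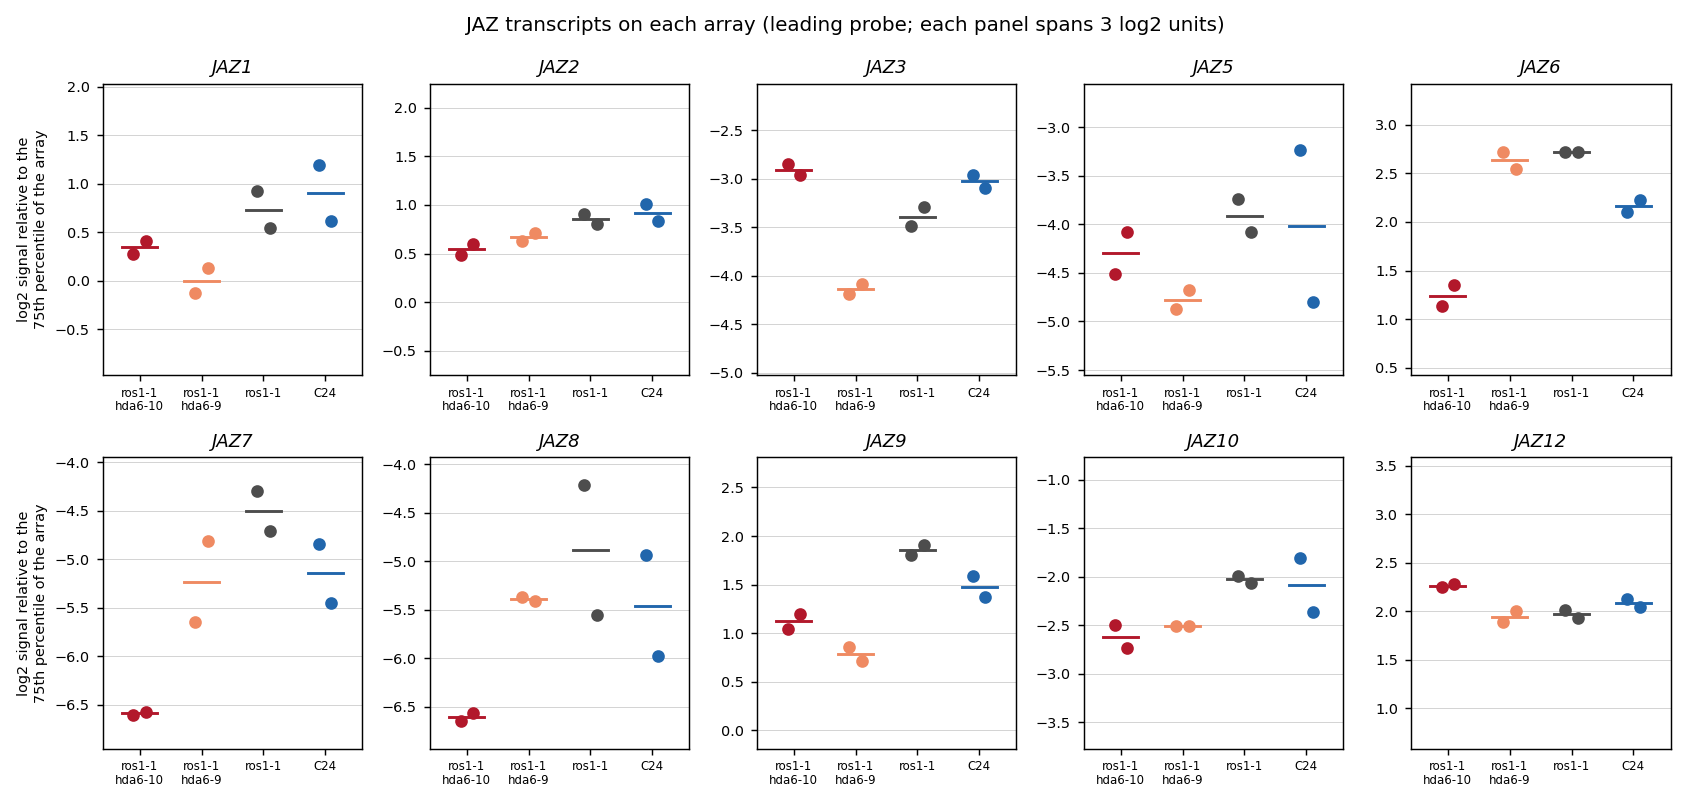
Level of the leading probe of each of the 10 JAZ genes on each array (y axis, log2 signal relative to the 75th percentile of the array; every panel spans 3 log2 units) by genotype (x axis). Points are single arrays, replicate 1 on the left, and bars are the mean of the 2 arrays; the hda6-10 arrays of JAZ6, JAZ7 and JAZ8 lie below the arrays of the other genotypes.

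JAZ7 and JAZ8 encode short JAZ proteins that bind TOPLESS through an EAR motif of their own and lack the canonical degron, which makes them poor substrates of COI1. The processed signal of JAZ7, before any scaling, was 20.6 and 23.0 units in hda6-10 and 146 and 103 units in ros1-1. On the log2 scale JAZ7 read -6.60 and -6.57 in hda6-10, -5.65 and -4.81 in hda6-9, -4.30 and -4.71 in ros1-1 and -4.84 and -5.45 in C24. The hda6-10 arrays were the lowest and overlapped no other genotype. JAZ7 fell 4.24-fold in hda6-10 against ros1-1 (log2 fold change -2.08 ± 0.33, limma adjusted p = 0.015), the greatest fall among the 13 probes. The call was lost under normexp background correction, which adds an offset of 50 to every signal (log2 fold change -0.74, adjusted p = 0.15, limma). It was also lost without hda6-10 replicate 1 (adjusted p = 0.079), hda6-10 replicate 2 (0.064) or ros1-1 replicate 1 (0.086, all from limma). In hda6-9 against ros1-1 the log2 fold change of JAZ7 was -0.73 ± 0.33 (limma adjusted p = 0.2).

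JAZ8 read -6.65 and -6.56 in hda6-10, -5.37 and -5.41 in hda6-9, -4.21 and -5.55 in ros1-1 and -4.94 and -5.98 in C24. Both hda6-10 arrays were again the lowest of the 8, but the ros1-1 arrays differed from each other by 1.34. The difference between hda6-10 and ros1-1 did not pass the test (log2 fold change -1.72 ± 0.50, adjusted p = 0.087, limma). It passed without ros1-1 replicate 2, the dimmer ros1-1 array (-2.40, limma adjusted p = 0.043). Under normexp background correction it shrank to -0.47, and in hda6-9 against ros1-1 it was -0.52 ± 0.50 (adjusted p = 0.53, limma).

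JAZ9 and JAZ3 carry the canonical degron, and a peptide of JAZ9 has been crystallised with MYC3. JAZ9 read 1.04 and 1.2 in hda6-10, 0.86 and 0.71 in hda6-9, 1.80 and 1.91 in ros1-1 and 1.59 and 1.37 in C24. Both alleles lay below both parents, with no overlap between any pair of neighbouring genotypes. JAZ9 fell 2.1-fold in hda6-9 against ros1-1 (log2 fold change -1.07 ± 0.12, limma adjusted p = 0.0046). In hda6-10 against ros1-1 it passed the adjusted p but not the 2-fold limit (-0.73 ± 0.12, adjusted p = 0.016, limma), and it no longer passed with slide as a fixed block or without hda6-10 replicate 1, ros1-1 replicate 1 or ros1-1 replicate 2 (limma adjusted p between 0.063 and 0.12). The hda6-9 value sits close to the 2-fold limit: without hda6-9 replicate 2 it was -0.99 (limma adjusted p = 0.035). With the array slide as a fixed block it was -1.05 (limma adjusted p = 0.11).

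JAZ3, known from the dominant mutant jai3-1, had the arrays of the 2 alleles on opposite sides of both ros1-1 arrays. It read -2.85 and -2.96 in hda6-10, -4.19 and -4.08 in hda6-9, -3.49 and -3.29 in ros1-1 and -2.96 and -3.09 in C24. The hda6-10 arrays were the highest, over C24 by less than the second decimal, the hda6-9 arrays were the lowest, and ros1-1 lay between them with no overlap. Against ros1-1 the log2 fold change was 0.48 ± 0.11 in hda6-10 (adjusted p = 0.042) and -0.75 ± 0.11 in hda6-9 (adjusted p = 0.011, both from limma). Both passed the adjusted p and stayed under 2-fold. The hda6-10 value no longer passed under 14 of 19 alternatives, among them the removal of any 1 of the 8 arrays (limma adjusted p between 0.064 and 0.18). The hda6-9 value no longer passed with slide as a fixed block (limma adjusted p = 0.092) or without hda6-9 replicate 1 (0.062) or ros1-1 replicate 2 (0.058).

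The remaining 5 genes were not called in any of the 4 comparisons. JAZ1, which binds NINJA and HDA6, read 0.28 and 0.41 in hda6-10, -0.13 and 0.13 in hda6-9, 0.92 and 0.54 in ros1-1 and 1.19 and 0.61 in C24. All 4 allele arrays were below all 4 arrays of the parents, with log2 fold changes against ros1-1 of -0.39 ± 0.23 in hda6-10 and -0.73 ± 0.23 in hda6-9 (limma adjusted p = 0.36 and 0.095). Its close relative JAZ2 read 0.49 and 0.60 in hda6-10, 0.63 and 0.71 in hda6-9, 0.91 and 0.80 in ros1-1 and 1.01 and 0.83 in C24. The order of arrays was the same as for JAZ1 in that the alleles lay below the parents, and the log2 fold changes were -0.31 ± 0.10 in hda6-10 and -0.19 ± 0.10 in hda6-9 (limma adjusted p = 0.11 and 0.26). JAZ10, whose splice forms include a protein that resists degradation, read -2.50 and -2.73 in hda6-10, -2.51 and -2.51 in hda6-9, -1.99 and -2.06 in ros1-1 and -1.81 and -2.36 in C24. Its alleles lay below the parents as well, at -0.59 ± 0.19 and -0.48 ± 0.19 against ros1-1 for hda6-10 and hda6-9 (limma adjusted p = 0.11 and 0.15). Which splice forms a probe reads is not known here, and the other JAZ10 probe gave -0.59 in hda6-10 and -0.38 in hda6-9.

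JAZ5 read -4.51 and -4.08 in hda6-10, -4.87 and -4.68 in hda6-9, -3.74 and -4.08 in ros1-1 and -3.23 and -4.80 in C24. The C24 arrays differed from each other by 1.57, more than any genotype means did, and no difference passed (limma adjusted p = 0.69 in hda6-10 and 0.29 in hda6-9, against ros1-1). JAZ12, whose protein is stabilised by the ubiquitin ligase KEG, varied least between genotypes, with 0.32 between its highest and lowest genotype mean. It read 2.25 and 2.28 in hda6-10, 1.89 and 2.0 in hda6-9, 2.01 and 1.93 in ros1-1 and 2.13 and 2.04 in C24. The hda6-10 arrays were the highest, by 0.30 ± 0.08 over ros1-1 (limma adjusted p = 0.081), and hda6-9 overlapped ros1-1. JAZ genes form closely related pairs, and how far a probe also reads a relative was not tested.

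Counted over the 13 probes, 3 fell and 0 rose in hda6-10 against ros1-1, where a call needs a limma adjusted p under 0.05 over all 35391 tested probes and a change above 2-fold. The calls were both JAZ6 probes and JAZ7. Over all tested probes 1.35% were called lower and 5.02% higher. In hda6-9 against ros1-1, 1 of 13 probes fell (JAZ9) and 0 rose, against 1.37% called lower and 4.3% called higher over all tested probes. Neither 0 changed when p was left unadjusted: 0 probes rose at p under 0.05 and above 2-fold in either allele, with limma.

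With no minimum fold, 4 of 13 probes were lower in hda6-10 (JAZ6, JAZ7 and JAZ9; background 3.43%) and 1 was higher (JAZ3; background 8.62%). For hda6-9 the numbers were 2 lower (JAZ3 and JAZ9; background 3.47%) and 0 higher (background 8.72%). Counting probes whose arrays do not overlap, 10 of 13 had both hda6-10 arrays below both ros1-1 arrays, against 24.2% of all tested probes, and 3 of 13 (JAZ3 and JAZ12) had them above, against 31.3%. The JAZ5 arrays among those 10 were apart by less than the second decimal. Both hda6-9 arrays were below both ros1-1 arrays for 8 of 13 probes, against 27.0%, and above for 0 of 13, against 34.9%. The median log2 fold change of the 13 probes was -0.59 in hda6-10 and -0.48 in hda6-9, beside 0.02 over all tested probes in each. Probes below 0 numbered 10 of 13 in hda6-10 and 13 of 13 in hda6-9, beside 46.3% and 46.7% of all tested probes. The sign turned under at least 1 alternative for JAZ6, JAZ8 and JAZ12 in hda6-9 and for JAZ5 in hda6-10. Both comparisons use the same 2 ros1-1 arrays, so the values of the alleles are not independent of each other.

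**Figure D2:**
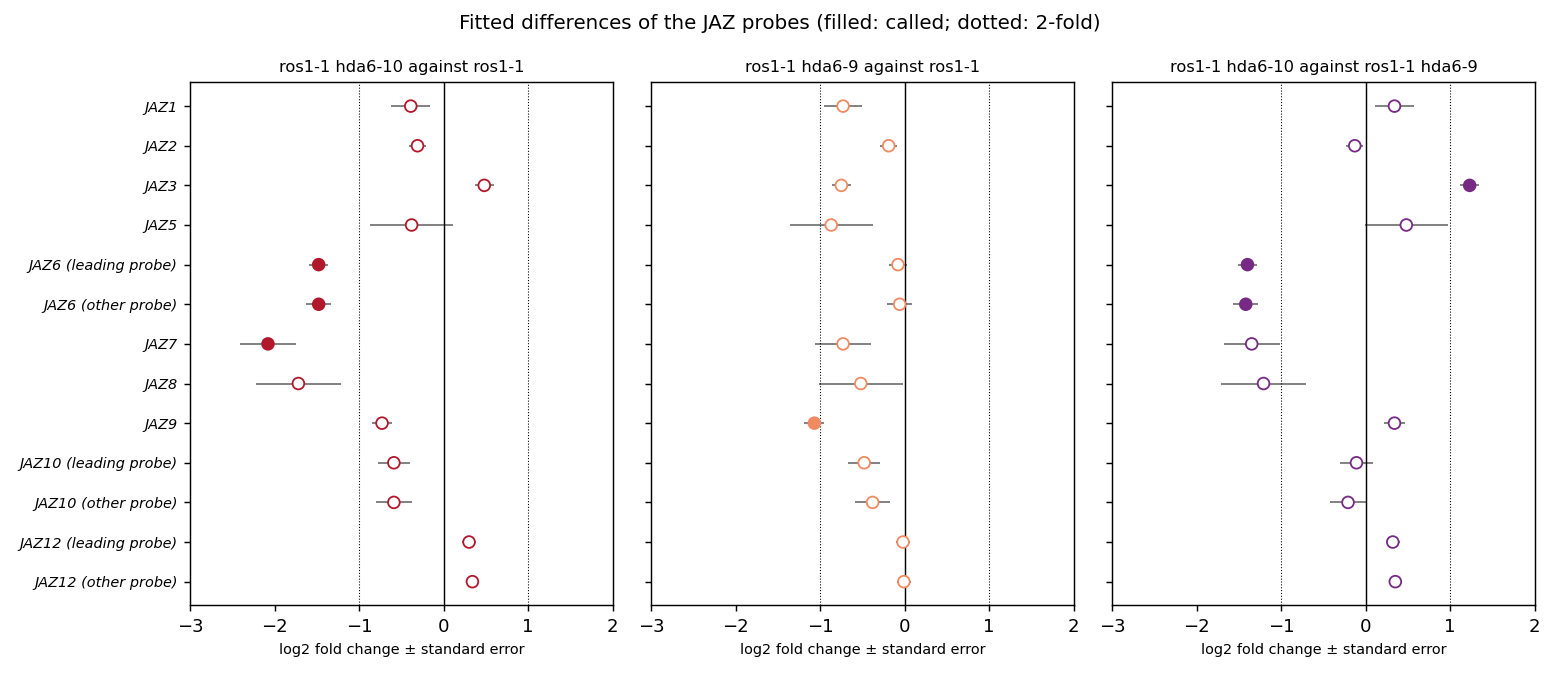
Fitted log2 fold change (x axis, point ± standard error from limma) of the 13 JAZ probes (y axis) for hda6-10 against ros1-1, hda6-9 against ros1-1 and hda6-10 against hda6-9. Filled points are called and dotted lines mark 2-fold; both JAZ6 probes lie near -1.48 in hda6-10 and near 0 in hda6-9, and JAZ3 lies at 0.48 and -0.75.

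Set directly against each other, the alleles differed in JAZ3 and JAZ6. The alleles shared no slide, and their slides are linked only by the ros1-1 arrays. With slide as a fixed block neither gene was called, but that fit called no probe at all between the alleles and cannot decide about these 2 genes. JAZ3 was 2.35-fold higher in hda6-10 than in hda6-9 (log2 fold change 1.23 ± 0.11, limma adjusted p = 0.016), and 1.44% of all tested probes were called higher. JAZ6 was 2.64-fold lower by its leading probe (-1.40 ± 0.11, adjusted p = 0.015, limma) and -1.42 ± 0.15 by the other (limma adjusted p = 0.021), and 0.54% of all tested probes were called lower. Neither call held when the fit used only the arrays of these 2 genotypes (limma adjusted p = 0.053 for JAZ3, 0.059 and 0.067 for JAZ6), nor without hda6-10 replicate 1, hda6-9 replicate 1 or hda6-9 replicate 2. The sign and size were kept, with JAZ3 between 1.05 and 1.49 and the leading JAZ6 probe between -1.51 and -1.29 over the alternatives. JAZ7 and JAZ8 were lower in hda6-10 than in hda6-9 by -1.35 ± 0.33 and -1.21 ± 0.50 on the log2 scale, and neither passed the test (limma adjusted p = 0.086 and 0.21).

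The ros1-1 mutation was compared with C24. No JAZ probe was called, with 0 higher and 0 lower of 13 by limma, and also 0 and 0 at an unadjusted p under 0.05 and above 2-fold. Over all tested probes 0.0932% were called higher and 0.342% lower. The values furthest from 0 were JAZ7 at 0.64 ± 0.33 (limma adjusted p = 0.54), JAZ8 at 0.58 ± 0.50 (0.73), the JAZ6 probes at 0.55 ± 0.11 (0.16) and 0.53 ± 0.15 (0.27), JAZ9 at 0.38 ± 0.12 (0.31) and JAZ3 at -0.36 ± 0.11 (0.3). Both C24 arrays shared a slide that held no ros1-1 array, and the effects of slide and genotype cannot be told apart here.

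No slide held arrays of both alleles. Slide 1 held both hda6-10 arrays and ros1-1 replicate 1, and slide 2 held hda6-9 replicate 1 and ros1-1 replicate 2. The other hda6-9 array, replicate 2, was alone on slide 3 among the 8 arrays. Within slide 1, the hda6-10 mean minus ros1-1 was -1.48 and -1.47 for the JAZ6 probes, -2.29 for JAZ7, -2.40 for JAZ8, -0.67 for JAZ9 and 0.58 for JAZ3. Within slide 2, hda6-9 minus ros1-1 was -1.05 for JAZ9, -0.91 for JAZ3, -0.95 for JAZ7, 0.17 for JAZ8 and 0.00 for the leading JAZ6 probe. For JAZ3, JAZ7 and JAZ9 in both alleles, and JAZ6 and JAZ8 in hda6-10, both allele arrays lay on the same side of both ros1-1 arrays. Their sign within a slide was thus fixed in advance and says nothing about the effect of slide. For JAZ8 in hda6-9, whose arrays overlapped those of ros1-1, the sign within slide 2 was opposite to that of the fitted value.

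The spread between replicates was uneven over the family. Replicate 1 was above replicate 2 for 3 of 13 JAZ probes in hda6-10, beside 20489 of 35348 tested probes, and for 5 of 13 in hda6-9, beside 15827 of 35362. In ros1-1 this held for 9 of 13 JAZ probes, beside 16513 of 35357, and in C24 for 11 of 13, beside 16157 of 35355. The C24 arrays were 1.57 apart for JAZ5 and 1.04 apart for JAZ8. JAZ5, JAZ7 and JAZ8 had the widest gaps. Among genes that respond to touch and wounding within minutes to hours, replicate 1 was the higher for 10 of 14 probes in ros1-1 and 13 of 14 in C24 (median gaps 0.34 and 0.43). For jasmonate catabolism the counts were 10 of 12 in ros1-1 and 12 of 12 in C24 (medians 0.50 and 0.60), and for jasmonate synthesis 26 of 30 in ros1-1 and 22 of 30 in C24 (medians 0.30 and 0.20). Probes of MYC-branch genes, which jasmonate induces through MYC factors, were higher on replicate 1 for 6 of 16 in ros1-1 and 16 of 16 in C24 (medians -0.11 and 0.65). The receptor and transcription genes gave 5 of 19 in ros1-1 and 12 of 19 in C24, the ERF branch 6 of 9 and 4 of 9, and the other TIFY genes 2 of 12 and 8 of 12. In hda6-9 replicate 1 was the higher for 1 of 30 synthesis, 1 of 12 catabolism and 1 of 9 ERF-branch probes. Their medians were -0.14, -0.37 and -0.75. In hda6-10 these counts were 15 of 30, 3 of 12 and 4 of 9. The touch, MYC-branch, receptor and other TIFY lists gave 6 of 14, 8 of 16, 7 of 19 and 7 of 12 in hda6-9. In hda6-10 they gave 6 of 14, 5 of 16, 8 of 19 and 3 of 12. The part of these responses in the JAZ values was not tested.

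**Figure D3:**
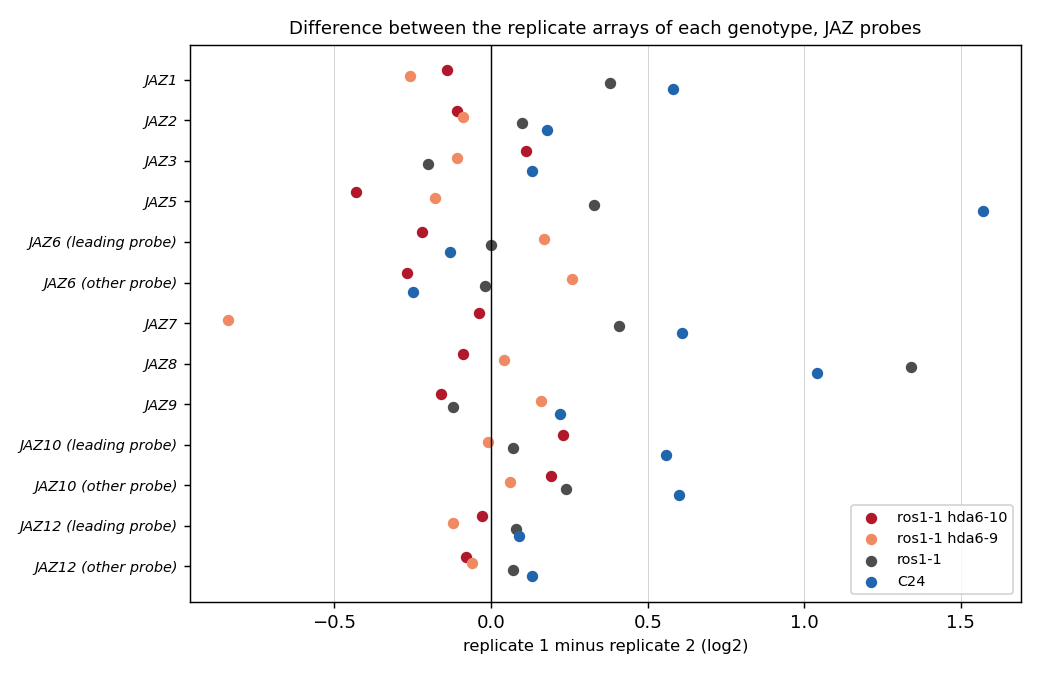
Replicate 1 minus replicate 2 on the log2 scale (x axis) for each of the 13 JAZ probes (y axis), with 1 point per genotype. The widest hda6-10 gap is 0.43 and the widest hda6-9 gap is 0.84, while ros1-1 and C24 points reach 1.34 and 1.57, both to the right of 0.

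In 7 lists of other jasmonate and stress genes, with 112 tested probes, 2 probes were called higher and 9 lower in hda6-10 against ros1-1 by limma. In hda6-9 against ros1-1 the counts were 0 higher, also 0 with p unadjusted, and 9 lower. For these counts and those of the single lists below, the share over all tested probes was 1.35% lower and 5.02% higher in hda6-10. In hda6-9 that share was 1.37% lower and 4.3% higher. Counts with p unadjusted have no such share here. TIFY is the wider family to which all JAZ genes belong. The list of other TIFY genes also holds JAZ4, JAZ11 and JAZ13, which are JAZ genes outside the 10 followed here. The JAZ13 probe was well above background on 0 arrays and was not tested. Of the 12 tested probes of this list, 0 were called in either allele against ros1-1 by limma. At an unadjusted p under 0.05 and above 2-fold, also 0 passed. At 0.38 ± 0.27 and -0.31 ± 0.11 in hda6-10, neither leading probe of JAZ4 or JAZ11 passed (limma adjusted p = 0.45 and 0.15). Among the receptor, coreceptor and transcription genes that act with JAZ proteins, 1 of 19 probes was higher in hda6-10 against ros1-1 and 1 was lower, with a list median of 0.05. In hda6-9 none of the 19 was called by limma, also 0 with p unadjusted, and the median was -0.14. The higher was MYC2, the main transcription factor that JAZ proteins hold back, at 1.35 and 1.52 in hda6-10, -0.40 and 0.18 in hda6-9, 0.12 and 0.28 in ros1-1 and 1.38 and 0.72 in C24. Its hda6-10 arrays were above both ros1-1 and both hda6-9 arrays but overlapped C24 (log2 fold change 1.23 ± 0.27 against ros1-1, limma adjusted p = 0.041). That call was lost under 7 of 19 alternatives, among them the removal of either hda6-10 or either ros1-1 array (limma adjusted p between 0.12 and 0.17). JAV1, a VQ-motif repressor of defence genes that jasmonate removes, was the lower, at -1.66 and -1.58 in hda6-10, -0.54 and -0.63 in hda6-9, -0.23 and -0.28 in ros1-1 and -0.20 and -0.35 in C24. The hda6-10 arrays of JAV1 stood clear of the other 6 (log2 fold change -1.36 ± 0.09 against ros1-1, limma adjusted p = 0.00062) and the call was kept under all 19 alternatives.

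None of 30 probes for jasmonate synthesis was called in either allele by limma, with medians of 0.15 in hda6-10 and 0.18 in hda6-9, and at an unadjusted p under 0.05 and above 2-fold 1 was higher in hda6-10 and 1 lower in hda6-9. Of 12 probes for jasmonate catabolism, 4 fell in hda6-10 and 3 in hda6-9 (medians -1.11 and -0.11). Each call was that of a leading probe. In hda6-10 the calls of CYP94C1, JOX2, JOX3 and JOX4 were all lost without hda6-10 replicate 1 or without ros1-1 replicate 1. Only JOX3 kept its call without hda6-10 replicate 2, and only CYP94C1 without ros1-1 replicate 2. CYP94C1 and JOX2 also lost their calls without either hda6-9 array. In hda6-9 JOX2 and JOX3 lost their calls with slide as a fixed block and without hda6-9 replicate 1 or ros1-1 replicate 1. JOX2 also lost its call without hda6-9 replicate 2, and JOX3 without ros1-1 replicate 2. CYP94C1 and JOX2 each lost their call in hda6-10 under 11 of 19 alternatives, and JOX2 lost its call in hda6-9 under 4. JOX3, a jasmonate oxygenase, read -5.17 and -4.20 in hda6-10, -6.13 and -5.11 in hda6-9, -2.28 and -2.53 in ros1-1 and -1.92 and -2.65 in C24, with every allele array below every parent array. Relative to ros1-1, JOX3 had a log2 fold change of -2.28 ± 0.48 in hda6-10 (limma adjusted p = 0.035) and -3.21 ± 0.48 in hda6-9 (limma adjusted p = 0.013). Its relative JOX4 was at -3.96 ± 0.79 in hda6-10 and -6.39 ± 0.79 in hda6-9 (limma adjusted p = 0.03 and 0.0066). The call of JOX3 was lost without either ros1-1 array in both alleles (limma adjusted p between 0.06 and 0.15), and also without hda6-10 replicate 1 (0.14) or hda6-9 replicate 1 (0.054). The JOX4 call in hda6-10 was lost without any 1 of the hda6-10, ros1-1 or C24 arrays (limma adjusted p between 0.054 and 0.14), and its call in hda6-9 was kept under all 19 alternatives.

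Among genes of the MYC branch, 2 of 16 probes fell in hda6-10 and 5 in hda6-9 (medians -0.62 and -2.46). These medians are over probes, several of them for VSP1 and VSP2, and the 5 calls in hda6-9 came from 3 genes. By leading probe, the 8 tested genes were at -2.73, -2.72, -2.52, -2.39, -0.83, 0.16, 0.4 and 0.59 in hda6-9 against ros1-1. In hda6-10 against ros1-1 they were at -3.24, -1.7, -1.44, 0.02, 0.13, 0.57, 0.6 and 1.05, from lowest to highest. VSP1 and VSP2 encode vegetative storage proteins of very similar sequence that jasmonate induces, and their probes may share signal. The leading VSP2 probe read -2.46 and -2.42 in hda6-10, -3.13 and -4.31 in hda6-9, -1.27 and -0.72 in ros1-1 and -2.79 and -3.55 in C24. Here ros1-1 was the genotype that stood above the rest, and C24 overlapped hda6-9 in range. Against ros1-1 this probe fell by 2.73 ± 0.45 in hda6-9 (limma adjusted p = 0.018) and did not pass in hda6-10 (-1.44 ± 0.45, limma adjusted p = 0.1). The other VSP2 probe passed in neither, at -2.94 ± 0.75 in hda6-9 and -1.27 ± 0.75 in hda6-10 (limma adjusted p = 0.06 and 0.36). VSP1 fell in hda6-10 by 2 of its 4 probes, but its leading probe did not pass there (-1.70 ± 0.45, limma adjusted p = 0.067). The hda6-9 calls of VSP1 and VSP2 by their leading probes were lost without hda6-9 replicate 2, ros1-1 replicate 1 or ros1-1 replicate 2 (limma adjusted p between 0.052 and 0.092). Of the 3 leading probes called in this list in hda6-9, 0 were called without any 1 of those arrays.

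In the ERF branch, which ethylene and jasmonate drive together, 1 of 9 probes was higher and 1 lower in hda6-10, and 0 in hda6-9, also 0 there with p unadjusted (medians -0.10 and 0.05, limma). ORA59, the transcription factor of that branch, read -3.26 and -2.36 in hda6-10, -0.04 and -0.09 in hda6-9, -0.01 and -0.24 in ros1-1 and -1.15 and -0.96 in C24. It was lowest in hda6-10 with no overlap, by -2.69 ± 0.29 against ros1-1 (limma adjusted p = 0.004), while hda6-9 was at 0.05 ± 0.29 (limma adjusted p = 0.92). The call in hda6-10 was lost only with slide as a fixed block among the 19 alternatives (limma adjusted p = 0.059). PDF1.3, a plant defensin gene with close relatives, was higher in hda6-10 (1.82 ± 0.43, limma adjusted p = 0.048), a call lost under 10 of 19 alternatives, among them the removal of any 1 of the hda6-10, hda6-9 or ros1-1 arrays (limma adjusted p between 0.051 and 0.2).

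Of 14 probes for rapid touch and wound responses, 1 fell in each allele against ros1-1 (medians -0.28 and -0.75). TCH4, a xyloglucan-modifying enzyme gene switched on by touch, read 0.79 and 0.78 in hda6-10, 2.0 and 1.61 in hda6-9, 2.95 and 2.49 in ros1-1 and 1.47 and 1.44 in C24. It was -1.93 ± 0.19 in hda6-10 against ros1-1 (limma adjusted p = 0.0029), and kept its call under all 19 alternatives. ZAT12, a stress-induced zinc finger gene, fell in hda6-9 (-1.83 ± 0.30, limma adjusted p = 0.018), where its arrays read -1.11 and -0.13 beside 1.19 and 1.23 in ros1-1. That call was lost when the fit used only the hda6-9 and ros1-1 arrays (limma adjusted p = 0.071). It was also lost without ros1-1 replicate 1 or 2 (log2 fold change -1.85 and -1.81). Between ros1-1 and C24, 0 probes of these 7 lists were called by limma, while 6 were higher by more than 2-fold, and 4 lower, with p under 0.05 before adjustment.

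Between the alleles themselves, MYC2 (1.54 ± 0.27, limma adjusted p = 0.045), ZAT12 (1.89 ± 0.30, 0.036) and ANAC019, a NAC factor of the MYC branch (3.44 ± 0.49, 0.03), were higher in hda6-10, as log2 differences from hda6-9. JAV1 (-1.03 ± 0.09, limma adjusted p = 0.016), ORA59 (-2.74 ± 0.29, 0.021) and TCH4 (-1.02 ± 0.19, 0.05 after rounding) were lower. Each of these 6 calls was lost under 6 to 17 of 19 alternatives, among them the fit on only the arrays of these 2 genotypes and the removal of hda6-10 replicate 1 or of hda6-9 replicate 1. Without hda6-9 replicate 2 all but ZAT12 were lost, and without hda6-10 replicate 2 all but JAV1 and ORA59. No probe for synthesis, catabolism or the other TIFY genes was called between the alleles by limma; at an unadjusted p under 0.05 and above 2-fold, 2 synthesis probes and 1 catabolism probe were higher and 2 catabolism probes lower.

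**Figure D4:**
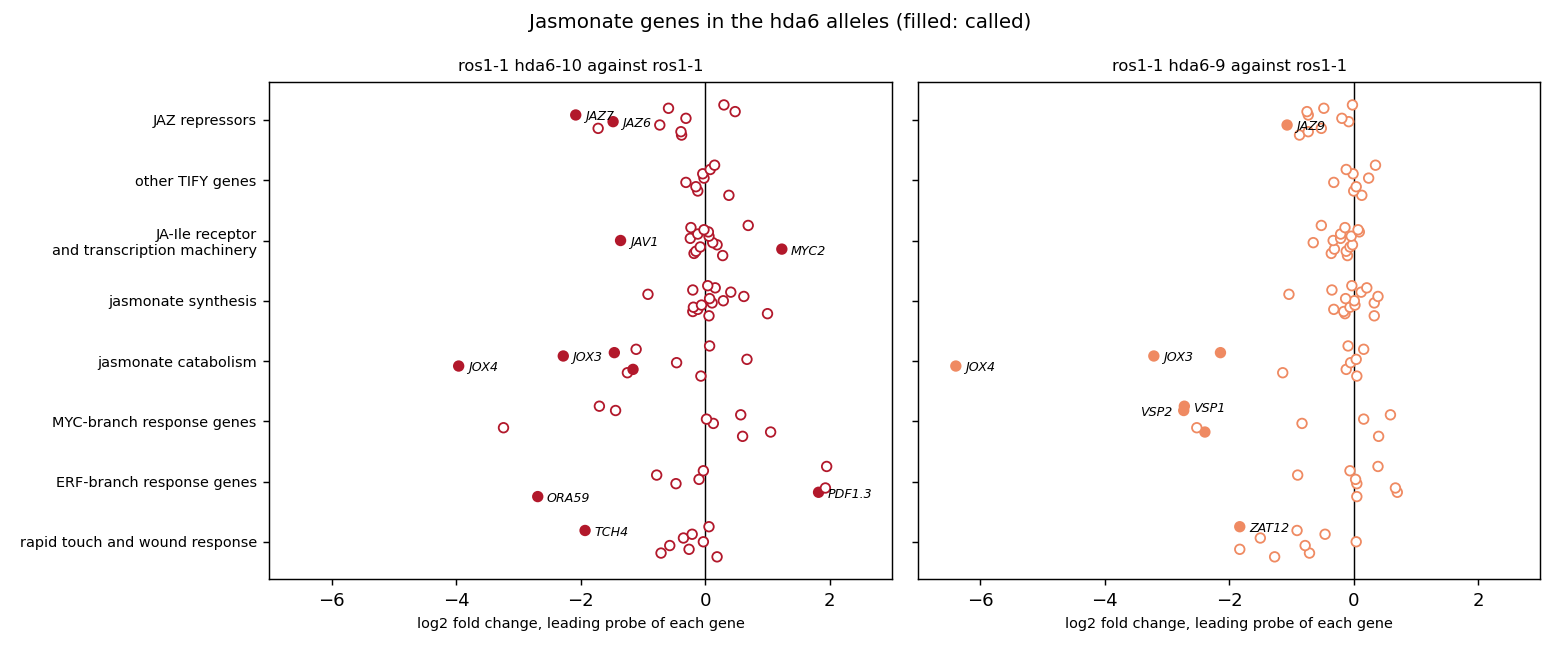
Log2 fold change of the leading probe of each gene (x axis) in 8 gene lists (y axis), for hda6-10 against ros1-1 on the left and hda6-9 against ros1-1 on the right. Filled points are called. Names are given to called JAZ genes and, in each other list, to at most the 2 called genes that rose most and the 2 that fell most. CYP94C1 and JOX2 thus carry no name. JAZ genes reach -2.08 in hda6-10 and -1.07 in hda6-9, while JOX4 lies at -3.96 and -6.39.

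The mean of the 10 leading JAZ probes, each centred on its own mean, was -0.39 and -0.30 in hda6-10, -0.26 and -0.13 in hda6-9, 0.47 and 0.23 in ros1-1 and 0.43 and -0.05 in C24. C24 replicate 2 was the parental array nearest to the alleles. Over the 8 arrays, the genes outside the family whose levels ran most like this mean were PBS3 (Pearson r = 0.982), PMZ (0.974), WRKY75 (0.973), AT1G73810 (0.972) and AT5G52740 (0.971), picked from 2566 candidate genes. The 8 points share 4 genotypes, and these values are descriptions with no test.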

How the data were processed

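Total RNA of seedlings was labelled with Cy3 and hybridised to 8 one-colour Agilent arrays. The authors deposited linear intensity values from Feature Extraction 10.7.1.1, background-subtracted and detrended, together with spot flags; no normalization between arrays had been applied. The combined value table held the background-subtracted intensity and served as an alternative.

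Levels are log2 processed signals minus the array's own 75th percentile over non-control probes. Spots marked as outliers were set aside and spots of 1 probe averaged. Testing required both arrays of some genotype to be well above background, as held for 35391 of 43603 probes. Genotype means were fitted to all 8 arrays with lmFit and eBayes (R 4.3.3, limma 3.58.1; prior degrees of freedom 1.8, residual 4), two-sided, after a check on simulated data. Calls required more than 2-fold and p under 0.05 after Benjamini-Hochberg adjustment over all tested probes; the authors' methods name p under 0.05 and 2-fold without naming the test. Precision is limited by the number of arrays.

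Transcript accessions linked probes to genes; the array's genome build differs from the annotation used, so no positions are given, and no sequences are shown. Every JAZ probe was described. From each other list, at most the 2 called genes that rose most and the 2 that fell most in a comparison could be named. JAZ4, JAZ11, JAZ13, CYP94C1 and JOX2 were named after their values were seen. Likeness was Pearson's r over 8 arrays. The JAZ members and the gene lists were chosen with earlier results of these data known, and no list was tested as a set. Same-numbered arrays were checked for pairing (sensitivity section). Alternatives changed the background correction, the shift, the filter, outlier spots, the arrays fitted, slide and replicate blocks, the call rule and each array in turn.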

Additional observations from a re-analysis of the deposited data

Results flagged for a closer look

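The effects of the 2 alleles, both taken against ros1-1, differed from each other for 3 JAZ probes by the test of the difference itself. For JAZ3 the hda6-10 effect minus the hda6-9 effect was 1.23 on the log2 scale (limma adjusted p = 0.016), with values of 0.48 in hda6-10 and -0.75 in hda6-9. For JAZ6 the difference was -1.40 by the leading probe (limma adjusted p = 0.015) and -1.42 by the other (limma adjusted p = 0.021), with effects near -1.48 in hda6-10 and near 0 in hda6-9. The ros1-1 arrays cancel in the size of these differences but not in their p-values, whose spread is taken over all 8 arrays. Fitted on only the arrays of the 2 alleles, no call held (limma adjusted p = 0.053 for JAZ3, 0.059 and 0.067 for JAZ6). The alleles also shared no slide.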

How the results depend on the processing

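In hda6-10 against ros1-1, 3 of 13 JAZ probes were lower, and leaving out 1 array at a time gave 2 to 4. In hda6-9 against ros1-1, 1 probe was lower, and leaving out an array gave 0 to 1 (0 without hda6-9 replicate 2). Between hda6-10 and hda6-9, 1 probe was higher and 2 were lower, and leaving out an array gave 0 to 1 and 0 to 2, with 0 and 0 without hda6-10 replicate 1, hda6-9 replicate 1 or hda6-9 replicate 2. Fitting only the arrays of those 2 genotypes gave 0 higher and 1 lower between the alleles (JAZ8, adjusted p = 0.049 with limma). A fixed block for slide gave 0 lower in hda6-9 against ros1-1 and 0 higher and 0 lower between the alleles; that fit called 0 of 35390 probes between the alleles in either direction, and it could not be made for ros1-1 against C24, where C24 had a slide to itself. With no minimum fold, 1 probe was higher in hda6-10 and 2 were lower in hda6-9, each against ros1-1. The cause of these shifts was not tested. Over all tested probes, same-numbered arrays of different genotypes did not deviate together (Pearson r between -0.37 and 0.06 over 6 pairs of genotypes). The lowest r was that of hda6-9 and ros1-1, whose differently numbered arrays hda6-9 replicate 1 and ros1-1 replicate 2 shared slide 2. For hda6-10 and C24, which shared no slide, r was -0.3. The part of slide in these values was not tested. For the JAZ, synthesis, catabolism and touch probes replicate 1 was mostly the higher in both ros1-1 and C24, while the other lists did not share this. Whether the numbers pair samples is not settled by these values. With the replicate number as a block the alleles differed in 0 higher and 0 lower JAZ probes, and the other counts stayed within 1.5 times. No fitted JAZ difference that was called turned its sign under any alternative. The differences of JAZ7 and JAZ8 depend on the background correction.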
